A study of Brassica rapa with 8 samples.

Results

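The transcript levels of whole Chinese cabbage (*Brassica rapa* L. ssp. *pekinensis*) seedlings kept on IBA-Ala were compared with those of seedlings kept on agar without hormone. IBA-Ala is indole-3-butyryl-L-alanine, in which the auxin indole-3-butyric acid (IBA) is bound to alanine through an amide bond. The comparison rests on 4 of the 8 libraries of the study, 2 labelled as treated with IBA-Ala and 2 labelled as untreated control, each described as a biological replicate. It was made across all 46250 genes listed and is described for 42 auxin-related genes that the paper pairs with a name. Seedlings of the cultivar Cantonner Witkrop were 1 day old when they were placed on plates of 1% agar, with 0.01 mM IBA-Ala or without any hormone. They stayed under continuous light at 22 °C for a further 24 h by the protocol in the labels, whereas the titles give 3 h, so the time of exposure is not certain. RNA was taken from 100 mg of whole seedlings. Roots, hypocotyls and cotyledons are therefore mixed, the tissue could not be checked against marker genes because few genes carry a name, and fewer cells of a type cannot be told apart from less RNA per cell.

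Auxins bound to amino acids are regarded as storage forms from which amidohydrolases can release the free hormone. In Arabidopsis, free IBA is shortened in the peroxisome to indole-3-acetic acid (IAA), the main active auxin. IAA brings the TIR1/AFB receptors and the Aux/IAA repressors together, the repressors are degraded, and the early auxin genes of the *Aux/IAA*, *SAUR* and *GH3* families are transcribed within a short time. The proteins of some of these families then dampen the signal, since Aux/IAA proteins repress transcription again and several GH3 enzymes bind IAA to amino acids.

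The libraries held 17552936 and 16616214 counts on genes for the control and 18669504 and 18544936 for IBA-Ala. Levels are given as CPM, counts relative to library depth after scaling by TMM, a factor that corrects for differences in composition between libraries. Where a library had no count for a gene, up to 3 counts cannot be told from 0. This limit corresponds to 0.155 to 0.188 CPM and covers counting error only. The distance between libraries, taken as the root mean square of the differences in log2 CPM over the genes, was 0.604 for the IBA-Ala replicates and 0.729 for the control replicates. IBA-Ala replicate 1 was 0.875 and 1.05 away from control replicates 1 and 2, and IBA-Ala replicate 2 was 0.685 and 0.821 away. Thus IBA-Ala replicate 2 and control replicate 1 were closer to each other than the control replicates were.

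After IBA-Ala, 367 genes rose and 76 genes fell among the 27011 genes with enough counts to be tested. Genes were tested by the quasi-likelihood method of edgeR, p-values were adjusted after Benjamini and Hochberg, and a gene was called at an adjusted p below 0.05. The 443 called genes make up 1.64% of the genes tested, with 1.36% for those that rose and 0.281% for those that fell. The median log2 fold change was 2.50 for the genes that rose, and their quartiles were 1.98 and 3.23. For the genes that fell it was −1.85, with quartiles of −2.35 and −1.61. Of the genes that rose, 270 were at least 4-fold and 52 at least 16-fold higher than in the control, while 34 of the genes that fell were at least 4-fold and 2 at least 16-fold lower. All 443 genes had changed at least 2-fold. No smaller change reached the threshold with 2 libraries per group, so the sizes given here partly reflect the selection. The median log2 fold change over all genes tested was −0.01.

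The median level of the genes that rose was 6.82 CPM in the control and 42.6 CPM after IBA-Ala. The genes that fell went from 39.8 to 10.7 CPM, and the median of all genes tested was 10.4 CPM in the control. Added up, the genes that rose had 7395 and 6956 CPM in the control replicates, but 42228 and 26879 in the IBA-Ala replicates 1 and 2. The genes that fell had 7053 and 9193 in the control and 2098 and 2606 after IBA-Ala. The genes were called on these same values. Selection alone therefore favours a low control level in genes that rose and a high one in genes that fell. Calls were more frequent at high levels, where the error is smaller. When the genes were divided by level into 5 classes of equal size, 18 rose and 3 fell at a median standard error (SE) of 0.597 on the log2 scale in the lowest class, and in the highest class 127 rose and 30 fell at 0.256.

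**Figure D1:**
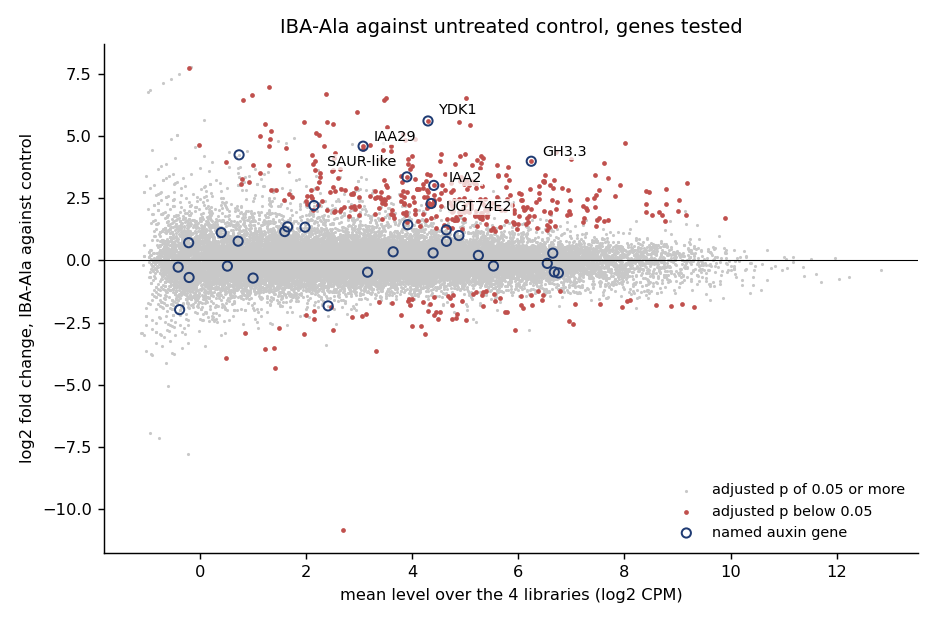
Mean level over the 2 control and 2 IBA-Ala libraries (log2 CPM, x axis) against the log2 fold change after IBA-Ala (y axis) for the 27011 genes tested. Each point is a gene, red points are the 367 genes that rose and the 76 that fell at an adjusted p below 0.05, and blue circles are the auxin-related genes with a name, of which the 6 labelled ones rose.

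The number of calls depended on single libraries and on the threshold. It was 120 without control replicate 2 and 262 without IBA-Ala replicate 1, but 1043 without control replicate 1 and 926 without IBA-Ala replicate 2. At an adjusted p below 0.01, 1 gene was called by edgeR (0.0037% of the genes tested). DESeq2, another count test, called 1198 genes (4.37%) at 0.05 and 807 genes (3.1%) at 0.01. The smallest adjusted p was 0.00986, 181 genes had an adjusted p below 0.02, and 4020 genes (14.9%) had an unadjusted p below 0.05.

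IBA-Ala replicate 1 was farther from the control than replicate 2 among the called genes. The median difference from the control mean in log2 CPM was 2.79 in replicate 1 and 2.08 in replicate 2 for the genes that rose, and −2.11 and −1.70 for the genes that fell. Of the genes that rose, 339 of 367 were higher in replicate 1, and of the genes that fell, 61 of 76 were lower in replicate 1. Among all genes tested, 50.8% were higher in replicate 1. The remaining 28 genes that rose were higher in replicate 2, and these included 3 of the named genes, namely *YDK1*, *GH3.3* and *IAA29*.

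**Figure D2:**
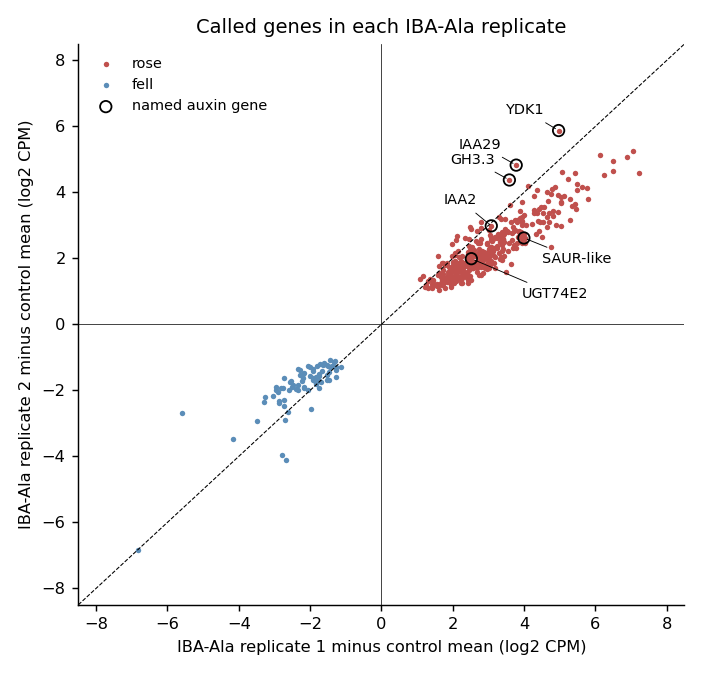
Difference from the mean of the 2 control libraries (log2 CPM) in IBA-Ala replicate 1 (x axis) and in IBA-Ala replicate 2 (y axis) for the 367 genes that rose (red) and the 76 that fell (blue), with the 6 named genes circled. Most of the points that rose lie below the dashed line of equal difference, whereas YDK1, GH3.3 and IAA29 lie above it.

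Of the 42 named genes, 33 had enough counts to be tested, 6 rose and 0 fell at an adjusted p below 0.05, against 1.64% of all genes tested. The groups did not overlap for 18 named genes that were higher and 5 that were lower in both IBA-Ala libraries, a pattern that 47.7% of all genes tested showed in either direction (23.9% higher and 23.7% lower). At an unadjusted p below 0.05, 15 named genes were higher and 2 lower, where 14.9% of all genes tested (2158 higher and 1862 lower) passed. DESeq2 called 10 named genes as higher and 1 as lower, where it called 4.37% of all genes. The 6 genes that rose were *IAA2*, *IAA29*, a *SAUR*-like gene, *YDK1*, *GH3.3* and *UGT74E2*. All 6 belong to 12 genes that the study had selected for a change after any of its treatments, these libraries included. Their count is therefore not independent evidence of a direction. Among these 12 genes the median log2 fold change was 2.66, 11 were higher and 1 was lower at an unadjusted p below 0.05, and 6 did not pass the adjusted threshold. The other 30 genes were further genes of auxin metabolism and response, picked from larger families. Of these, 21 were tested and 0 were called by edgeR, with 4 higher and 1 lower at an unadjusted p below 0.05 (14.9% of all genes tested) and 0 called by DESeq2 (4.37%). Their median log2 fold change was 0.20. Auxin genes that the study had called as changed stand among the 12. The lack of calls among the 30 was therefore partly fixed in advance.

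**Figure D3:**
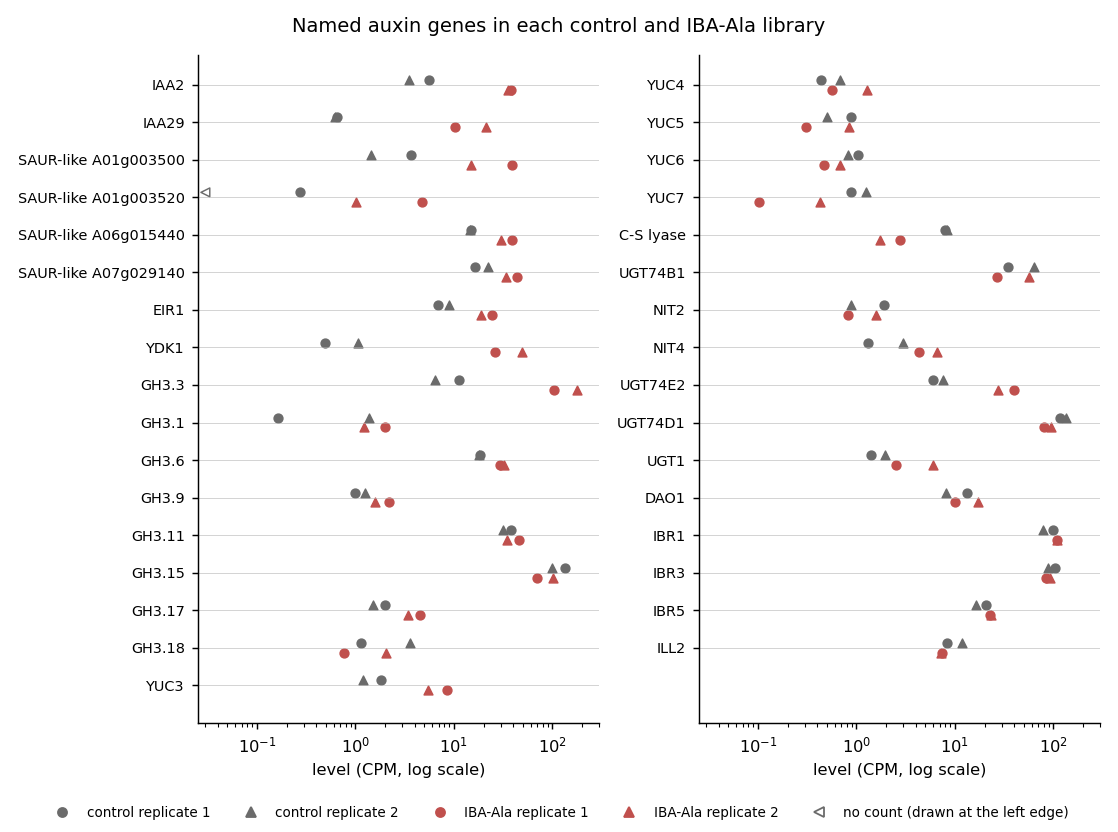
Level (CPM, log scale on the x axis) of the 33 tested auxin-related genes in control replicates 1 and 2 (grey circle and triangle) and IBA-Ala replicates 1 and 2 (red circle and triangle). The open triangle marks a library with no count, and the widest gaps between red and grey points are those of YDK1, IAA29 and GH3.3.

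The *Aux/IAA* genes encode the repressors of the auxin response, and both that were listed rose, against 1.36% of all genes tested. Both are among the 12 genes that the study had selected for a change after any of its treatments, these libraries included. Their count therefore does not describe the family. *IAA2* (BraA03g040660.3C) had levels of 5.56 and 3.50 CPM in the control replicates and of 38.2 and 35.8 CPM in the IBA-Ala replicates. Both treated libraries lay far above both controls and close to each other, and the log2 fold change was 3.02 ± 0.31 (SE, n = 2 per group, adjusted p = 0.0113 by edgeR's quasi-likelihood test). *IAA29* (BraA03g057220.3C) was nearly silent in the control, with 0.654 and 0.626 CPM, and reached 10.2 and 21.2 CPM after IBA-Ala. The treated replicates differed from each other, but the groups did not overlap, and the log2 fold change was 4.60 ± 0.52 (adjusted p = 0.0113 by edgeR). Without control replicate 2, the adjusted p of *IAA29* was 0.0549.

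The *SAUR* (*SMALL AUXIN UP RNA*) genes encode small proteins, of which several promote cell expansion in Arabidopsis. In all 4 *SAUR*-like genes both IBA-Ala libraries lay above both controls, as in 23.9% of all genes tested. Of the 4, 1 rose, against 1.36% of all genes. All 4 are among the 12 genes that the study had selected for their change, so these counts do not describe the family. The gene that rose, BraA01g003500.3C, had 3.65 and 1.44 CPM in the control and 38.4 and 14.7 CPM after IBA-Ala. Its log2 fold change was 3.36 ± 0.57 (adjusted p = 0.0292 by edgeR). Replicate 1 of the treatment was more than 2-fold above replicate 2, and without control replicate 2 the adjusted p was 0.112. The nearby identifier BraA01g003520.3C had 5 and 0 counts in the control and 92 and 19 counts after IBA-Ala. Its log2 fold change was 4.25 ± 1.14 with an adjusted p of 0.115 by edgeR and of 0.00418 by DESeq2. Reads that aligned at several places were not counted, so levels would be uncertain if these genes were near-identical copies, and their sequences were not compared here.

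The other 2 *SAUR*-like genes were expressed without treatment and differed less. BraA06g015440.3C had 14.8 and 14.5 CPM in the control and 38.9 and 29.8 CPM after IBA-Ala (log2 fold change 1.23 ± 0.26, adjusted p = 0.0612 by edgeR). BraA07g029140.3C had 16.5 and 22.0 CPM in the control and 43.5 and 33.6 CPM after IBA-Ala (log2 fold change 1.00 ± 0.27, adjusted p = 0.130 by edgeR). In both genes, IBA-Ala replicate 1 had the highest level of the 4 libraries.

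*EIR1* (BraA03g012590.3C) encodes in Arabidopsis the auxin efflux carrier PIN2, which is found in the root tip. It had 6.92 and 9.01 CPM in the control and 24.2 and 19.0 CPM after IBA-Ala. Both treated libraries lay above both controls, with a log2 fold change of 1.44 ± 0.29 that missed the threshold by edgeR (adjusted p = 0.0550) and passed it by DESeq2 (adjusted p = 0.00393).

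The *GH3* genes encode acyl acid amido synthetases, which bind auxins and other acids to amino acids. Of 12 *GH3* genes, 9 were tested, 2 rose and 0 fell by edgeR, against 1.64% of all genes called. At an unadjusted p below 0.05 (14.9% of all genes), 4 were higher and 0 lower. DESeq2, which called 4.37% of all genes, called 2 as higher and 0 as lower. The genes called, *YDK1* and *GH3.3*, are among those that the study had selected for their change. Their count therefore does not describe the family. *YDK1* (BraA01g001510.3C), which is *GH3.2* in Arabidopsis and conjugates IAA, had 0.490 and 1.06 CPM in the control and 26.2 and 49.2 CPM after IBA-Ala. It went from nearly silent to a 49.0-fold higher level in the fit, with a log2 fold change of 5.61 ± 0.49 (adjusted p = 0.0101 by edgeR). *GH3.3* (BraA09g054360.3C), another enzyme that conjugates IAA in Arabidopsis, had 11.2 and 6.38 CPM in the control and 103 and 178 CPM after IBA-Ala. Its log2 fold change was 3.99 ± 0.39 (adjusted p = 0.0113 by edgeR), and as in *YDK1* the higher of the treated libraries was replicate 2.

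Among the other *GH3* genes, *GH3.6* and *GH3.17*, which conjugate IAA in Arabidopsis, showed no overlap between the groups but missed the threshold. *GH3.6* (BraA02g013860.3C) had 18.2 CPM in both controls and 29.4 and 32.5 CPM after IBA-Ala (log2 fold change 0.77 ± 0.24, adjusted p = 0.185 by edgeR). *GH3.17* (BraA07g011840.3C) had 2.02 and 1.50 CPM in the control and 4.48 and 3.44 CPM after IBA-Ala (log2 fold change 1.16 ± 0.42, adjusted p = 0.248 by edgeR). For *GH3.1* and *GH3.9* the log2 fold changes were 1.12 and 0.77, at levels of at most 2.22 CPM in the 4 libraries and with adjusted p-values of 0.540 and 0.508 by edgeR.

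The *GH3* genes with other substrates were not called. *GH3.11* (BraA05g001430.3C) is *JAR1* in Arabidopsis, which conjugates jasmonic acid with isoleucine, and it had 38.2 and 31.2 CPM in the control and 45.6 and 34.3 CPM after IBA-Ala. Its 95% interval of the log2 fold change was −0.39 to 0.79. *GH3.15* (BraA03g005710.3C) encodes in Arabidopsis an enzyme that accepts IBA, and it had 134 and 99.5 CPM in the control and 69.2 and 100 CPM after IBA-Ala. The groups overlapped, with a log2 fold change of −0.47 and an interval of −1.10 to 0.17. *GH3.18* had a log2 fold change of −0.71 (adjusted p = 0.662 by edgeR). *GH3.12* had no count in the 4 libraries, *GH3.8* had 1 count in IBA-Ala replicate 2 only, and the unnumbered *GH3* gene BraA08g026630.3C had 1 and 2 counts in the control and 4 and 1 counts after IBA-Ala.

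**Figure D4:**
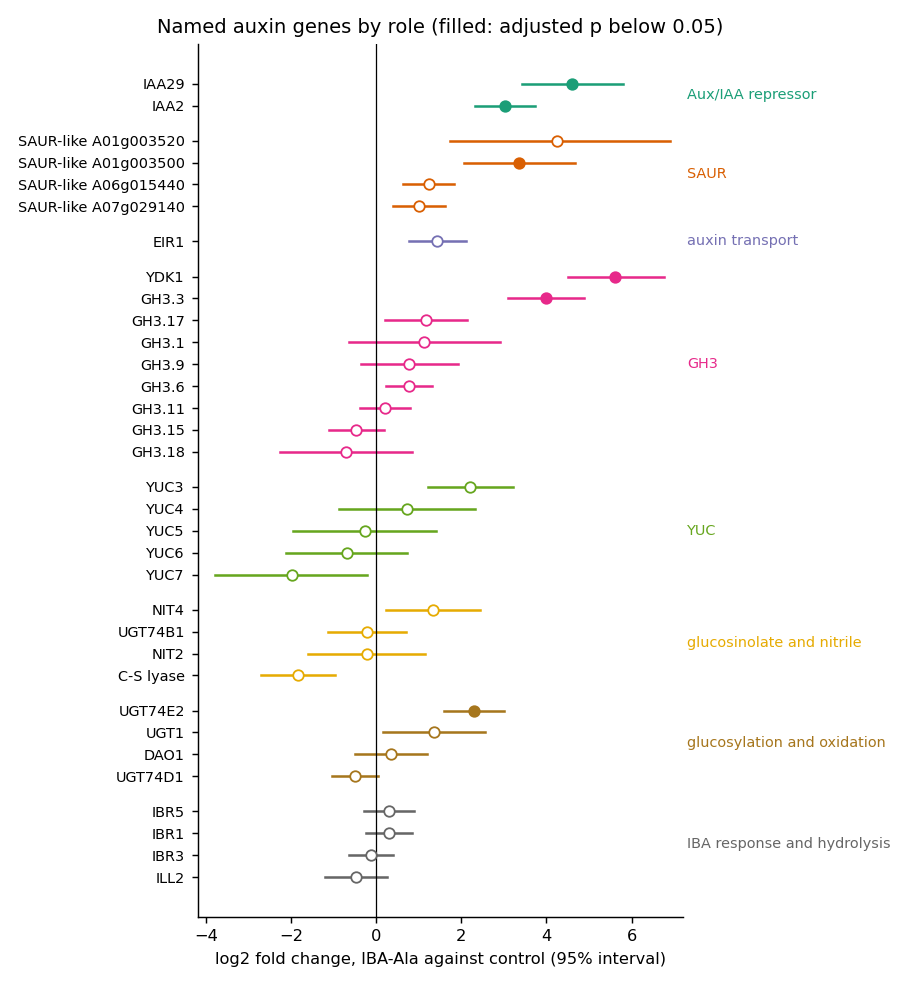
Log2 fold change after IBA-Ala against control (x axis) with its 95% interval for the 33 tested auxin-related genes, grouped and coloured by role (y axis). Filled points passed the threshold, and the 6 filled points lie among the Aux/IAA, SAUR and GH3 genes and at UGT74E2, whereas the 4 genes of IBA response and hydrolysis lie within 0.5 of 0.

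The *YUC* genes encode flavin monooxygenases, which make IAA from indole-3-pyruvic acid. Of 10 listed genes, 5 had enough counts to be tested and 0 were called by edgeR (1.64% of all genes), with 1 higher and 1 lower at an unadjusted p below 0.05 (14.9%) and 1 called as higher by DESeq2 (4.37%). *YUC3* (BraA10g003150.3C) had 1.80 and 1.19 CPM in the control and 8.45 and 5.51 CPM after IBA-Ala, so that both treated libraries were above both controls. Its log2 fold change was 2.21 ± 0.44, with an adjusted p of 0.0501 by edgeR and of 0.00207 by DESeq2. *YUC3* is among the genes that the study had selected for their change, so its call does not describe the family. *YUC7* (BraA05g011570.3C) had the opposite direction, with 0.872 and 1.25 CPM in the control and 0.103 and 0.424 CPM after IBA-Ala. Its log2 fold change of −1.98 ± 0.78 did not pass (adjusted p = 0.281 by edgeR).

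*YUC4*, *YUC5* and *YUC6* had log2 fold changes of 0.71, −0.27 and −0.69, with adjusted p-values between 0.643 and 0.889 by edgeR and at levels of at most 1.27 CPM. The other 5 *YUC* genes were too low to be tested. *YUC10* and *YUC11* had no count in the 4 libraries, *YUC9* had 0 and 2 counts in each group, *YUC8* had 5 and 2 counts in the control and 4 and 5 after IBA-Ala, and the unnumbered BraA01g005540.3C had 4 and 0 counts in the control and 0 and 4 after IBA-Ala. At this depth, no difference could be detected in these 5 genes.

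Another branch towards IAA in the Brassicaceae passes through indole glucosinolates and indole-3-acetonitrile. Of 4 genes listed as glucosinolate or nitrilase genes, which need not all act in this branch, 0 were called by edgeR. At an unadjusted p below 0.05, 1 was higher and 1 lower, and DESeq2 called 1 as lower. Over all genes these shares were 1.64%, 14.9% and 4.37%. The gene called by DESeq2, that of the C-S lyase, is among those that the study had selected for their change. Its call therefore does not describe the list. The C-S lyase gene (BraA03g054450.3C), which is *SUR1* in Arabidopsis and acts in the making of glucosinolates, was lower in both treated libraries. It had 7.85 and 8.32 CPM in the control and 2.78 and 1.75 CPM after IBA-Ala. The control replicates were nearly equal, and the log2 fold change of −1.83 ± 0.38 missed the threshold by edgeR (adjusted p = 0.0580) and passed it by DESeq2 (adjusted p = 0.00589). *UGT74B1*, a glucosyltransferase of the same pathway, had 34.9 and 63.2 CPM in the control and 26.9 and 57.0 CPM after IBA-Ala, with larger differences between replicates than between groups. The nitrilase gene *NIT4* had 1.31 and 3.00 CPM in the control and 4.28 and 6.52 CPM after IBA-Ala (log2 fold change 1.34 ± 0.48, adjusted p = 0.247 by edgeR). *NIT2*, another nitrilase gene, had a log2 fold change of −0.23 (adjusted p = 0.885 by edgeR).

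Auxins are also inactivated by glucosylation and oxidation. Of 5 such genes 4 were tested, and 1 rose and 0 fell by edgeR, where 1.36% of all genes rose. At an unadjusted p below 0.05 (14.9% of all genes) 2 were higher and 0 lower, and 1 was called as higher by DESeq2 (4.37%). The gene called, *UGT74E2*, is among those that the study had selected for their change. Its call therefore does not describe the list. *UGT74E2* (BraA08g034260.3C) encodes in Arabidopsis a glucosyltransferase that prefers IBA as its substrate. It had 5.99 and 7.64 CPM in the control and 39.4 and 27.2 CPM after IBA-Ala, so both treated libraries were more than 3-fold above both controls. It rose with a log2 fold change of 2.29 ± 0.31 (adjusted p = 0.0150 by edgeR) and stayed below 0.05 in all 12 alternative fits. *UGT74D1* (BraA04g022840.3C), which glucosylates oxidised IAA in Arabidopsis, had 117 and 133 CPM in the control and 80.7 and 95.2 CPM after IBA-Ala (log2 fold change −0.51 ± 0.23, adjusted p = 0.363 by edgeR).

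*UGT1* had 1.42 and 1.94 CPM in the control and 2.52 and 6.04 CPM after IBA-Ala, with a log2 fold change of 1.35 (adjusted p = 0.283 by edgeR). *DAO1*, whose product oxidises IAA in Arabidopsis, had 13.4 and 8.07 CPM in the control and 10.05 and 17.3 CPM after IBA-Ala, and the groups overlapped. *UGT84B1*, an IAA glucosyltransferase in Arabidopsis, had no count in the 4 libraries.

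The genes for the use of IBA and for the hydrolysis of conjugates were expressed in all 4 libraries, and 0 of 4 were called by edgeR or DESeq2 or had an unadjusted p below 0.05 by edgeR. Over all genes these shares were 1.64%, 4.37% and 14.9%, so that 0 of 4 does not set these genes apart. *IBR1* (BraA09g026060.3C) and *IBR3* (BraA05g038700.3C) encode in Arabidopsis peroxisomal enzymes of the conversion of IBA to IAA. *IBR1* had 99.7 and 77.9 CPM in the control and 110 and 108 CPM after IBA-Ala, a log2 fold change of 0.29 with a 95% interval of −0.25 to 0.84. *IBR3* had 103 and 88.4 CPM in the control and 85.0 and 91.4 CPM after IBA-Ala, a log2 fold change of −0.12 with an interval of −0.64 to 0.40. A doubling of either gene lies outside its interval.

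*IBR5*, which encodes a phosphatase of the auxin response in Arabidopsis, had 20.7 and 16.3 CPM in the control and 22.6 and 23.0 CPM after IBA-Ala, a log2 fold change of 0.30 with an interval of −0.29 to 0.89. *ILL2* (BraA03g012870.3C) encodes in Arabidopsis an amidohydrolase that splits conjugates of IAA such as IAA-Ala. For the *B. rapa* enzyme BrILL2, the paper cites earlier work in which IBA-Ala was split faster than IAA-Ala. Whether this identifier encodes that enzyme was not checked. *ILL2* had 8.39 and 11.9 CPM in the control and 7.42 and 7.15 CPM after IBA-Ala. Both treated libraries were below both controls, with a log2 fold change of −0.47 and an interval of −1.20 to 0.25.

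Genes without a name accounted for 437 of the 443 calls, and 3 of them were picked for the smallest adjusted p or the largest change. BraA03g059850.3C had the smallest adjusted p of all genes, 0.00986 by edgeR. It had 4.63 and 3.94 CPM in the control and 84.6 and 65.5 CPM after IBA-Ala, a log2 fold change of 4.13 ± 0.29. BraA07g036060.3C rose with the largest fitted log2 fold change, from 0 counts in both controls to 31 and 25 counts after IBA-Ala. Set against an upper limit of 3 counts per library, its rise was at least 8.32-fold, with the error of the IBA-Ala counts left out. Its adjusted p of 0.0485 by edgeR rose above the threshold without a filter on low counts (0.0699). The same happened when control replicate 1, control replicate 2 or IBA-Ala replicate 1 was left out.

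BraA02g001260.3C had the smallest adjusted p and the largest fitted change of the genes that fell (adjusted p = 0.0101 by edgeR). It had 250 and 185 counts in the control and 0 counts in both IBA-Ala libraries, so it was at least 80.4-fold lower. In the other 4 treated libraries it had 0 and 1 counts after IAA-Ala and 0 and 0 counts after IPA-Ala. Across all genes listed, 7 had no count in the controls and at least 10 in both IBA-Ala libraries, and 4 had the reverse. Of these 11 genes, 2 passed the test, and they are BraA07g036060.3C and BraA02g001260.3C.

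The study also treated seedlings with the conjugates of shorter side chains, IPA-Ala (the propionyl form) and IAA-Ala (the acetyl form), at the same concentration and time and with 2 libraries each. These were compared directly with IBA-Ala, in 2 comparisons that share the IBA-Ala libraries. Between IBA-Ala and IPA-Ala, 0 of 26940 genes were called by edgeR, with 2146 genes (7.97%) at an unadjusted p below 0.05 and 200 genes called by DESeq2. Of the named genes, 0 of 32 were called by edgeR, and 7 had an unadjusted p below 0.05. DESeq2 called 1 of the named genes, and no share over all genes is given for it. The 95% intervals of their differences, which are not adjusted for the number of genes, extended by a median of 0.748 on the log2 scale to either side. Larger differences also went uncalled, such as 1.41 in *GH3.3* (95% interval 0.17 to 2.65, adjusted p = 0.583 by edgeR). The lack of calls therefore does not limit the differences to this size.

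Between IBA-Ala and IAA-Ala, 1848 of 26952 genes (6.86%) were called at an adjusted p below 0.05 by edgeR, 874 of them higher (3.24%) and 974 lower (3.61%) after IBA-Ala. This number fell to 0 without IBA-Ala replicate 1, without IAA-Ala replicate 1 and in a fit of all 8 libraries, and it was 0 at an adjusted p below 0.01, where 7342 genes (27.2%) had an unadjusted p below 0.05. DESeq2 called 3112 genes at 0.05. Of the named genes, 2 of 33 were called by edgeR, with 8 at an unadjusted p below 0.05 and 4 called by DESeq2. Over all genes the shares were 6.86% by edgeR and 27.2% at an unadjusted p below 0.05, so the named genes do not stand out. No share over all genes is given for DESeq2.

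The first named gene called was *YDK1*, which had 135 and 104 CPM after IAA-Ala and 26.2 and 49.2 CPM after IBA-Ala. It was lower after IBA-Ala by a log2 difference of −1.66 ± 0.30 (95% interval −2.35 to −0.97, adjusted p = 0.0288 by edgeR). After IPA-Ala it had 4.60 and 29.1 CPM. *GH3.3*, the other *GH3* gene that rose, had 174 and 261 CPM after IAA-Ala, 22.3 and 83.1 CPM after IPA-Ala and 103 and 178 CPM after IBA-Ala, and was not called by edgeR in either direct comparison.

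The second was *UGT74E2*, which had 16.5 and 10.7 CPM after IAA-Ala and 39.4 and 27.2 CPM after IBA-Ala. It was higher after IBA-Ala by a log2 difference of 1.30 ± 0.27 (95% interval 0.66 to 1.94, adjusted p = 0.0403 by edgeR). After IPA-Ala it had 11.2 and 17.3 CPM, with a difference of 1.22 from IBA-Ala and an interval of 0.58 to 1.86 that did not pass (adjusted p = 0.451 by edgeR). Both IBA-Ala libraries were above the 6 other libraries. Against the control, whose 2 libraries these comparisons share, its log2 fold change was 0.98 for IAA-Ala (adjusted p = 0.251 by edgeR), 1.06 for IPA-Ala (adjusted p = 0.275) and 2.29 for IBA-Ala.

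**Figure D5:**
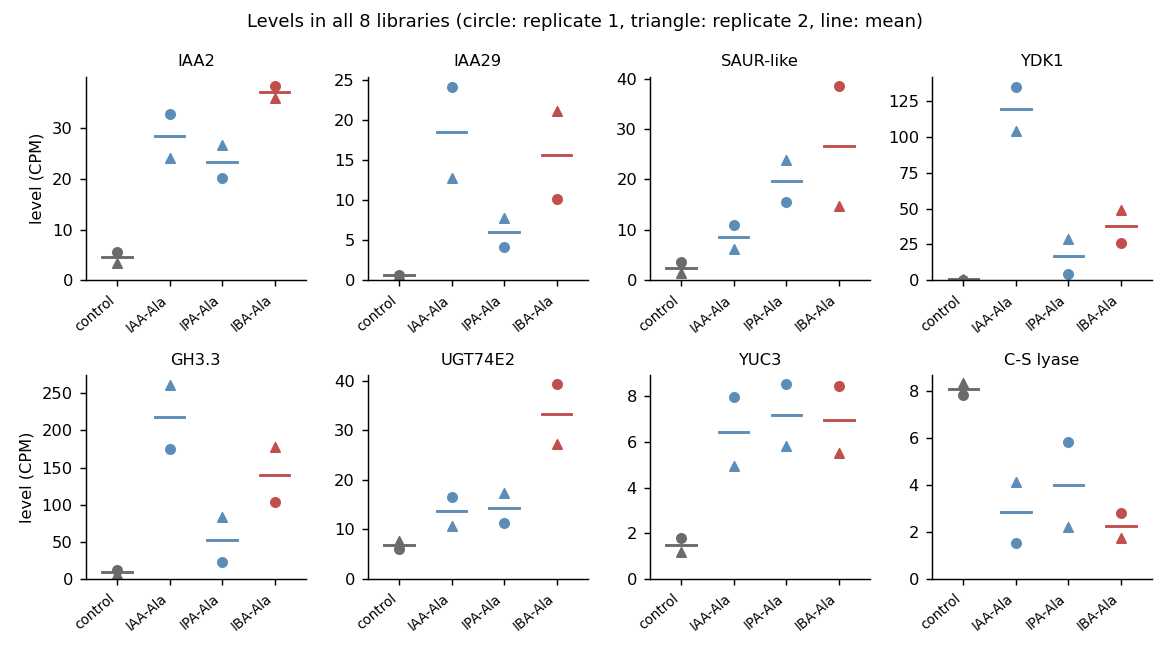
Level (CPM, y axis from 0) in control, IAA-Ala, IPA-Ala and IBA-Ala libraries (x axis) for the 6 named genes that rose after IBA-Ala and for YUC3 and C-S lyase, with a circle for replicate 1, a triangle for replicate 2 and a line for their mean. YDK1 has its highest levels after IAA-Ala, at 135 and 104 CPM, and UGT74E2 after IBA-Ala, at 39.4 and 27.2 CPM.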

How the data were processed

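RNA of whole *B. rapa* seedlings was sequenced, 2 libraries per group. According to the labels and the paper's methods, the authors clipped 9 bases from reads of about 50 bases, aligned them to the BRAD v3.0 genome with STAR 2.7.1a and counted uniquely aligned reads per gene by strand with HTSeq 1.99.2. The deposited values used are these counts, whole numbers that were not normalized. Reads outside genes (16.7% to 19.3% of uniquely aligned reads in the 4 libraries) were left out. The deposited tables named as normalized counts were not used. All 46250 identifiers were analysed, and 0 of them matched the reference table of gene names. Of the 42 names, 12 pairs of name and identifier are printed in the paper's text or tables and 30 were read from the labels of a figure, and all 42 identifiers occur in the files. Gene functions are those of Arabidopsis, apart from that of BrILL2, which is cited from the paper.

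R 4.3.3 with edgeR 4.0.16 (filterByExpr with a minimum count of 10, TMM, quasi-likelihood test with dispersions from estimateDisp, Benjamini-Hochberg adjustment) was used on the 4 libraries, without covariates. CPM were scaled over all 8 libraries. The fold changes carry a prior count of 0.125. The SE is the unshrunken log2 fold change over the root of the F statistic. Members, lists and the threshold of 0.05 were chosen with earlier results of these data known, among them that 0.01 leaves 1 gene. Unnamed genes were those with the smallest adjusted p or the largest change in each direction. The alternatives were DESeq2 1.42.0, RLE normalization, no filter, a minimum of 10 counts in each library, 1 fit of all 8 libraries, a block for the replicate number, a log2 fold change of at least 1, a threshold of 0.01 and each library left out. The edgeR 3 form of the test and the alternatives for the direct differences of single genes were added after seeing the data. Replicates differed by more than counting error (chi-square per gene of 45.6 in the control and 23.1 after IBA-Ala).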

Additional observations from a re-analysis of the deposited data

Results flagged for a closer look

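*YDK1* differed between IBA-Ala and IAA-Ala by a log2 difference of −1.66, with both IBA-Ala libraries below both IAA-Ala libraries, in a direct test by edgeR (adjusted p = 0.0288). *UGT74E2* differed in the other direction, by 1.30, with both IBA-Ala libraries above both IAA-Ala libraries (adjusted p = 0.0403 by edgeR). In this comparison 6.86% of all genes tested and 2 of 33 named genes were called, so these calls do not set the named genes apart. The adjusted p over the 12 alternatives ranged from 1.8e-06 to 0.137 for *YDK1* and from 0.00087 to 0.186 for *UGT74E2*, and each lost its call in 6 of them. Without IBA-Ala replicate 1 the differences were −1.26 and 1.02, with adjusted p-values of 0.102 and 0.186 by edgeR. Groups of 2 libraries were not tested for outliers.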

How the results depend on the processing

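The 443 called genes (367 higher, 76 lower) became 1198 (834, 364) with DESeq2, 789 (606, 183) with all 8 libraries in one fit and 1 (1, 0) at an adjusted p below 0.01 (DESeq2 at 0.01: 807, with 602 higher and 205 lower). Without a filter on low counts, 46 genes were lower. With each library left out, the numbers ranged from 120 to 1043 (98 to 735 higher, 22 to 484 lower), and 108 of the 120 genes called without control replicate 2 were among the 443. The 6 named genes called became 11 with DESeq2 at 0.05 and at 0.01, 10 with all 8 libraries, 0 at 0.01, and 4 to 9 with each library left out. The lone sample left in such a fit is assumed to vary like the other group.

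Between IBA-Ala and IPA-Ala, 0 genes became 200 with DESeq2 (91 at 0.01), and 0 to 107 with each library left out, the 107 without IBA-Ala replicate 2. Between IBA-Ala and IAA-Ala, 1848 genes became 3112 with DESeq2 (1786 at 0.01), 593 without a filter, 0 with all 8 libraries, 0 at 0.01, 1204 at a log2 difference of at least 1, and 0 to 1156 with each library left out.

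Same-numbered replicates of control and IBA-Ala correlated at 0.156 in their deviations, and nothing in the labels pairs them. With the replicate number as a block, 1960 genes were called (1190 higher, 770 lower), 12 of them named, and with the block and all 8 libraries 852 (668 higher, 184 lower), 10 of them named. The block gave 1 gene between IBA-Ala and IPA-Ala and 4899 between IBA-Ala and IAA-Ala, or 23 with all 8 libraries.

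The direction turned only in genes that were not called and only when a library was left out. With each library left out, the log2 fold change ranged from −0.017 to 0.39 for *GH3.11*, −1.59 to 0.30 for *GH3.18*, −1.15 to 0.29 for *YUC5*, −0.87 to 0.26 for *UGT74B1*, −0.77 to 0.45 for *NIT2* and −0.10 to 0.76 for *DAO1*. The causes were not tested. With 2 libraries per group, differences of low genes such as the *YUC* genes are not detectable unless they are large.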
